A study of Mus musculus with 21 samples.

Results

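The enzymes that crosslink collagen were followed in cultured mouse fibroblasts with and without loss of Prrx1, a homeodomain transcription factor of mesenchymal cells. The 9 members were taken by symbol (LOX, LOXL1 to LOXL4, PLOD1, PLOD2, PLOD3 and TGM2, whatever the case) from the 3 count tables, as 9 of 24540 genes listed in any table, and all 9 are in each table. They are the lysyl oxidases Lox, Loxl1, Loxl2, Loxl3 and Loxl4, the lysyl hydroxylases Plod1, Plod2 and Plod3, and the transglutaminase Tgm2. Bulk RNA-seq covered 21 cultures in 7 groups of 3. Mouse embryonic fibroblasts (MEF) came from C57BL/6 embryos of embryonic days 10 to 13, as WT cultures, as Prrx1 mutant cultures (labelled KI_PRRX1, with LacZ inserted into the homeodomain of Prrx1 on an allele from strain 129 that was backcrossed to C57BL/6), and as sgPrrx1 cultures (labelled SG_PRRX1). Wound-healing fibroblasts came from C57BL/6 dorsal wounds at day 10, as WT and sgPrrx1 cultures. MMTV-CAFs, the carcinoma-associated fibroblasts of breast tumours that form in MMTV-PyMT mice, came from strain FVB/NJ, as WT and sgPrrx1 cultures. In sgPrrx1 groups Prrx1 was targeted with CRISPR/Cas9 and a guide RNA, with a nonspecific guide as the control, and all 7 groups were immortalised with human papillomavirus oncogenes.

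Collagen fibrils gain strength from covalent bonds between neighbouring molecules. Inside the cell, lysyl hydroxylases add hydroxyl groups to lysines of the collagen chains, and the form of the lysine sets which crosslink can follow. Outside the cell, copper-dependent lysyl oxidases turn lysines of collagen and elastin into reactive aldehydes that condense into crosslinks, whereas Tgm2 joins glutamine to lysine in matrix proteins such as fibronectin. Fibroblasts and myofibroblasts are the main source of these enzymes in healing and fibrotic tissue and in tumour stroma.

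Total counts per culture ranged from 69588655 to 134790440, and the lowest count of any member in any culture was 255, so counting error was small for all 9. Levels are given in CPM, counts relative to the library size after TMM scaling over all 21 libraries. Fibroblast markers were present in every group, with 8 to 10 of 11 at a mean of at least 1 CPM, while Epcam, Ptprc and Pecam1 had means under 1 CPM in every group. Other markers of the same lists were present: Kdr, an endothelial receptor, made up nearly all of an endothelial sum of 287 to 293 CPM in WT and 140 to 145 in sgPrrx1 wound-healing fibroblasts, and Cd14 led leukocyte sums of 13.9 to 27.7 CPM over the 7 groups. The summed epithelial markers, mostly Krt19, were at 198 to 239 CPM in Prrx1 mutant MEF against 17.8 to 19.96 in WT MEF, and at 0.204 to 0.339 in sgPrrx1 MMTV-CAFs against 52.1 to 54.2 in WT. Summed fibroblast markers were lower in every Prrx1-loss group: 5676 to 6959 CPM in mutant and 9896 to 11657 in sgPrrx1 MEF against 12705 to 13022 in WT MEF, 3615 to 3652 against 9519 to 9579 in wound-healing fibroblasts and 16840 to 17024 against 33185 to 33932 in MMTV-CAFs. These sums include Col1a1, Col1a2 and Col3a1, which are also crosslinking substrates and had negative log2 fold changes in every comparison with WT. They therefore do not show how the other fibroblast markers moved. Smooth muscle and pericyte markers were lower too, most in MMTV-CAFs (34.5 to 36.0 CPM against 198 to 208), where Fabp4, the leading adipocyte marker, brought that sum from 6.54 to 7.18 CPM in WT to 183 to 190 in sgPrrx1 cultures. The part of these shifts in the results was not tested. Group and cell line cannot be told apart. Kdm5d, a Y-linked gene, had 3 counts over all Prrx1 mutant MEF cultures against 2475 in WT MEF, and Ddx3y, also Y-linked, stood at 1.96 to 2.18 CPM in sgPrrx1 wound-healing cultures against 20.05 to 22.3 in WT. Each was near the WT level in the other group, Ddx3y at 18.8 to 23.8 CPM in mutant MEF and Kdm5d at 12.7 to 13.2 CPM in sgPrrx1 wound-healing cultures. MMTV-CAFs had 0 counts of both and at least 315 CPM of Xist, so strain and these sex-linked marks go with the type. These 3 genes were chosen after their values were seen. Nothing in the labels says that cultures of a group came from separate animals, and p-values therefore measure only the spread between these cultures, which may be technical.

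Prrx1, the targeted gene, was lower in every Prrx1-loss culture than in every WT culture of its type. It stood at 192, 166 and 184 CPM in WT MEF, at 26.1, 20.7 and 19.9 in Prrx1 mutant MEF, and at 126, 94.9 and 140 in sgPrrx1 MEF. In wound-healing fibroblasts it stood at 146, 143 and 152 CPM in WT and 65.3, 64.2 and 65.1 in sgPrrx1 cultures, and in MMTV-CAFs at 627, 632 and 636 in WT and 308, 309 and 301 in sgPrrx1 cultures. The mutant MEF thus had the lowest transcript of all groups, and sgPrrx1 MEF the smallest fall. The protein was not analysed here.

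The first question was how much of each enzyme the unedited fibroblasts make. Of the 9 members, 9 differed between WT wound-healing fibroblasts and WT MEF (5 lower, 4 higher), 9 between WT MMTV-CAFs and WT MEF (2 lower, 7 higher) and 8 between WT MMTV-CAFs and WT wound-healing fibroblasts (0 lower, 8 higher; edgeR adjusted p under 0.05, with 9 members at an unadjusted p under 0.05 in the first 2 contrasts and 8 in the last). Of all genes, 80.3, 79.2 and 80.4% were called in the same contrasts, so these counts are near or somewhat above the background. The shares of all genes lower and higher were 39.4 and 40.9%, 38.6 and 40.6%, and 41.1 and 39.4%, beside which the 0 lower and 8 higher of the last contrast are uneven. Lox, Loxl2 and Loxl3 stood furthest above WT MEF in WT MMTV-CAFs. Lox was 2.11 (log2, standard error 0.11) higher there, Loxl2 2.05 (0.04) and Loxl3 2.41 (0.03), with edgeR adjusted p-values of 1.82e-07, 6.74e-10 and 1.24e-10. Loxl4 ran the other way and was highest in MEF, 1.90 (0.18) lower on the log2 scale in WT wound-healing fibroblasts (edgeR adjusted p = 8.72e-06). Plod2 differed by 0.02 (standard error 0.06) between WT MMTV-CAFs and WT wound-healing fibroblasts, with an edgeR adjusted p of 0.829. Lox differed little between WT wound-healing fibroblasts and WT MEF, by 0.28 (0.11, edgeR adjusted p = 0.0377), and this call was lost when any 1 WT wound-healing culture was left out (adjusted p 0.0758 to 0.0780) and with RLE scaling (0.0646). Type, strain and tissue cannot be told apart here.

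To compare genes with each other, CPM was divided by exon length in kilobases from the Gencode M1 annotation. On that scale Lox and Loxl1 made up most of the lysyl oxidase transcript in every group. WT MEF held 144 ± 24.9 CPM per kilobase of Lox (SD, n = 3) and 198 ± 30.6 of Loxl1 (SD, n = 3), 32.6 and 44.9% of the family sum. WT MMTV-CAFs held 641 ± 6.96 of Lox (SD, n = 3), 67.0% of a sum of 956 ± 13.6 (SD, n = 3). In WT wound-healing fibroblasts the share of Lox lay between these, at 56.6% of a sum of 302 ± 2.08 (SD, n = 3). Plod3 was the most abundant lysyl hydroxylase per kilobase in all 7 groups, with shares of the Plod sum from 46.6 to 64.3%. Tgm2 per kilobase ranged from 0.762 ± 0.0607 in sgPrrx1 wound-healing fibroblasts (SD, n = 3) to 25.3 ± 0.454 in sgPrrx1 MMTV-CAFs (SD, n = 3).

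**Figure D1:**
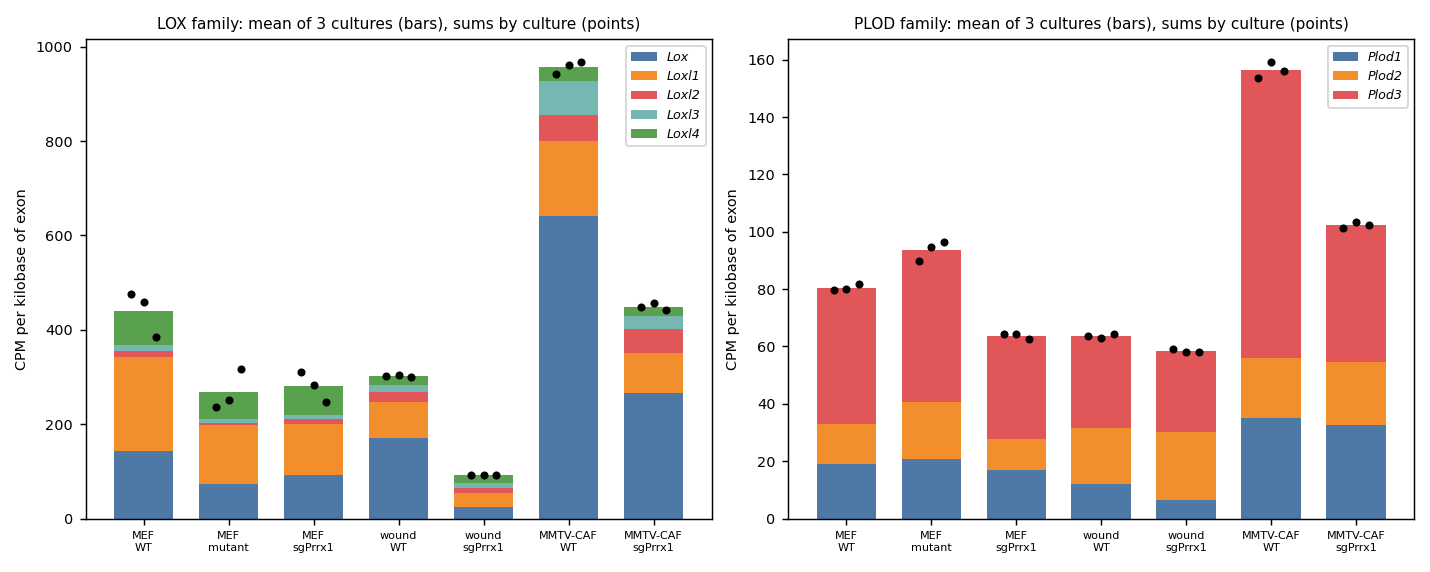
Summed level of the 5 lysyl oxidases (left) and the 3 lysyl hydroxylases (right) in CPM per kilobase of exon, by group; stacked bars are means of 3 cultures and points are the sums in single cultures. The lysyl oxidase sum of WT MMTV-CAFs, 956, is the highest and that of sgPrrx1 wound-healing fibroblasts, 92.4, the lowest, and in the latter Lox fell to 25.9% of the family.

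The second question was how each member changed with loss of Prrx1, against WT cultures of the same type. In Prrx1 mutant MEF, 6 of the 9 members passed the test as lower and 1 as higher, beside 30.5 and 29.4% of all genes (59.9% in either direction). In sgPrrx1 MEF the counts were 6 and 0, beside 22.8 and 20.3% (43.1%). In sgPrrx1 wound-healing fibroblasts they were 8 and 1, beside 39.3 and 38.3% (77.6%), and in sgPrrx1 MMTV-CAFs 6 and 2, beside 41.9 and 41.2% (83.1%). All 9 passed the filter on low counts in each comparison. Counts in either direction were thus near the background in the last 2 comparisons, whereas more members were lower than higher in all 4. Spread between cultures also differed by type. The median coefficient of variation over genes with a mean of at least 1 CPM was 7.96 to 10.6% in the MEF groups. It was 2.48 to 3.08% in the wound-healing and MMTV-CAF groups, so smaller changes could pass there. All 3 cultures lay below WT for 6 members and above for 1 in mutant MEF (30.8 and 32.4% of all genes), below for 7 and above for 0 in sgPrrx1 MEF (25.7 and 25.5%), below for 8 and above for 1 in wound-healing fibroblasts (37.5 and 37.8%) and below for 6 and above for 2 in MMTV-CAFs (39.3 and 40.0%). The median log2 fold change of the members was −0.38, −0.37, −0.88 and −0.63, against 0.01, 0.00, 0.00 and −0.00 over all genes tested. Asking also for at least a 2-fold change left 2 members lower in Prrx1 mutant MEF (Lox and Loxl2), 0 in sgPrrx1 MEF (7 members had an unadjusted edgeR p under 0.05, and DESeq2 called 7 with no minimum), 3 lower in wound-healing fibroblasts (Lox, Loxl1 and Tgm2) and 3 lower in MMTV-CAFs (Lox, Loxl3 and Plod3), with 0 higher in each. Of all genes, 14.5, 8.97, 7.06 and 12.8% were then lower and 9.64, 1.58, 8.57 and 11.5% higher, or 24.1, 10.6, 15.6 and 24.3% in either direction. With no minimum fold, the count of 7 members called in Prrx1 mutant MEF rested on single cultures: it was 3 without mutant replicate 2, 3 without WT replicate 1 and 4 without WT replicate 2. Over all genes, calls in sgPrrx1 MEF fell from 5764 to 3834 without sgPrrx1 replicate 2 and to 3830 without WT replicate 2. The mutant and sgPrrx1 MEF share the same 3 WT cultures. In bulk samples, fewer cells that make an enzyme and less RNA of it per cell cannot be told apart.

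**Figure D2:**
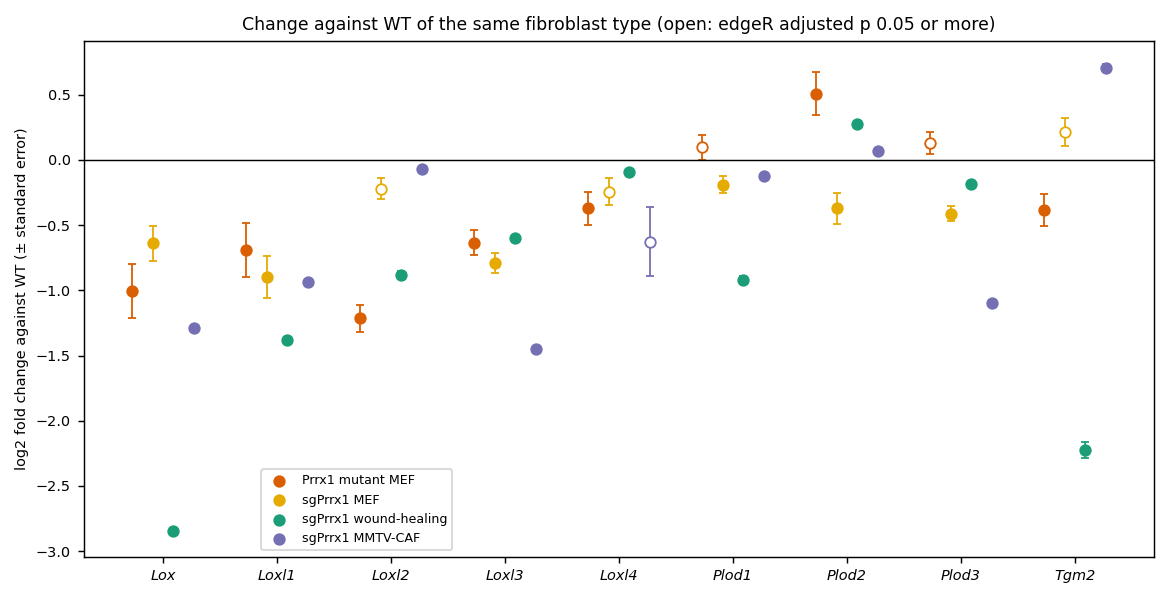
The log2 fold change of each member against WT of the same type, with its standard error as bars; filled points passed an edgeR adjusted p of 0.05 and open points did not. Lox, Loxl1 and Loxl3 lie below 0 and passed in all 4 comparisons, Lox lowest at −2.84 in wound-healing fibroblasts, and Tgm2 is split between −2.23 there and 0.70 in MMTV-CAFs.

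Among the lysyl oxidases, Lox, Loxl1 and Loxl3 were lower in all 4 comparisons. Positions are on GRCm38.p6. Lox (chromosome 18, 52516060 to 52529867), the founding member, oxidises lysines of fibrillar collagen and elastin, and its loss is lethal in newborn mice. Lox stood at 748, 738 and 540 CPM in WT MEF, 399, 252 and 376 in Prrx1 mutant MEF and 466, 446 and 401 in sgPrrx1 MEF. Every mutant and sgPrrx1 culture lay below every WT culture, although WT replicate 3 was closer to them than the others. The log2 fold change came to −1.003 (standard error 0.21, edgeR adjusted p = 0.00529) in mutant and −0.64 (0.14, edgeR adjusted p = 0.0091) in sgPrrx1 MEF. In wound-healing fibroblasts Lox stood at 804, 805 and 800 CPM in WT and at 114, 114 and 109 in sgPrrx1 cultures. This was the largest fall of any member, 7.17-fold, with a log2 fold change of −2.84 (standard error 0.02, edgeR adjusted p = 1.68e-11). In MMTV-CAFs Lox stood at 2988, 2995 and 3048 CPM in WT and at 1263, 1251 and 1240 in sgPrrx1 cultures. These cultures still held more Lox than any WT MEF or WT wound-healing culture after a log2 fold change of −1.29 (standard error 0.01, edgeR adjusted p = 1.4e-10). Across the 7 groups the means of Lox spanned 26.8-fold, and no 2 neighbours in that order overlapped.

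Loxl1 (chromosome 9, 58287723 to 58313212), which elastic fibre assembly depends on, was at 728, 711 and 543 CPM in WT MEF, 303, 417 and 529 in Prrx1 mutant MEF and 422, 359 and 294 in sgPrrx1 MEF. Mutant replicate 3 came close to WT replicate 3, and the groups did not overlap. The log2 fold changes were −0.69 (standard error 0.21, edgeR adjusted p = 0.0234) and −0.90 (0.16, edgeR adjusted p = 0.00488). The call in mutant MEF was lost without mutant replicate 2, WT replicate 1 or WT replicate 2. Loxl1 fell from 256, 260 and 249 CPM in WT wound-healing fibroblasts to 98.3, 97.8 and 98.0 in sgPrrx1 cultures, and from 526, 550 and 520 in WT MMTV-CAFs to 287, 281 and 276. The log2 fold changes were −1.38 (standard error 0.02) and −0.94 (0.03), with edgeR adjusted p-values of 3.84e-10 and 1.98e-08. Along the order of group means, the ranges of WT MEF and WT MMTV-CAFs overlapped, as did those of WT MMTV-CAFs and mutant MEF, and of mutant and sgPrrx1 MEF.

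Loxl3 (chromosome 6, 83034205 to 83052566), a lysyl oxidase needed for palate and spine development, was at 54.3, 55.4 and 55.7 CPM in WT MEF, 31.3, 36.7 and 40.1 in mutant MEF and 34.6, 32.5 and 29.4 in sgPrrx1 MEF. It fell from 61.8, 62.3 and 63.1 CPM to 41.0, 40.2 and 42.6 in wound-healing fibroblasts, and from 302, 298 and 305 to 109, 111 and 114 in MMTV-CAFs. Groups did not overlap in any of the 4 comparisons, and the fall was largest in MMTV-CAFs, with a log2 fold change of −1.45 (standard error 0.02, edgeR adjusted p = 4.67e-10) against −0.64 (0.10), −0.79 (0.08) and −0.60 (0.03) in mutant MEF, sgPrrx1 MEF and wound-healing fibroblasts. Loxl3 shares 1301 bases with Htra2, and reads of the kit used do not mark strand. Htra2 changed by 1.34 (standard error 0.10) in mutant MEF and by 0.22 (0.03) in MMTV-CAFs, opposite in sign to Loxl3, and by −0.17 (0.03) in wound-healing fibroblasts, the same sign. In sgPrrx1 MEF it had a log2 fold change of 0.26 (0.09) that did not pass.

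Loxl2 (chromosome 14, 69608692 to 69695834), which also acts on the collagen of basement membranes, changed very unequally. It was at 70.8, 66.2 and 65.4 CPM in WT MEF, 26.4, 28.4 and 33.9 in mutant MEF and 63.3, 58.1 and 53.7 in sgPrrx1 MEF. Mutant cultures lay far below both others, with a log2 fold change of −1.22 (standard error 0.10, edgeR adjusted p = 9.2e-05), whereas sgPrrx1 MEF gave −0.22 (0.08, edgeR adjusted p = 0.0595), which passed only without sgPrrx1 replicate 1 among cultures left out (0.0362). With all cultures kept, the change in sgPrrx1 MEF passed under DESeq2 (adjusted p = 0.0443). It also passed in edgeR with upper-quartile scaling (adjusted p = 0.0445) and with the replicate block (0.0243). The fall was 0.88 on the log2 scale in wound-healing fibroblasts, from 113, 114 and 115 CPM to 60.3, 63.3 and 63.0. In MMTV-CAFs it was near 0 although past the threshold, with 290, 283 and 291 CPM in WT, 277, 280 and 276 in sgPrrx1 cultures and a log2 fold change of −0.07 (standard error 0.02, edgeR adjusted p = 0.00369). Loxl2 overlaps the noncoding Gm27177, and the unstranded reads there cannot be told apart by strand.

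Loxl4 (chromosome 19, 42592279 to 42612806) was the least regular of the lysyl oxidases. In wound-healing fibroblasts it was at 77.8, 79.6 and 79.7 CPM in WT and at 74.6, 74.0 and 74.9 in sgPrrx1 cultures, a log2 fold change of −0.09 (standard error 0.02, edgeR adjusted p = 0.00515). In MEF it was at 302, 263 and 342 CPM in WT, 205, 246 and 262 in mutant and 274, 259 and 240 in sgPrrx1 cultures. Mutant cultures were just below WT, with −0.37 (standard error 0.13, edgeR adjusted p = 0.0374), and sgPrrx1 and WT cultures overlapped, with −0.24 (0.11, edgeR adjusted p = 0.101, and 0.0496 without WT replicate 2). The call in mutant MEF was lost without mutant replicate 1 or 2, and without WT replicate 1 or 3. With all cultures kept it was lost in edgeR with upper-quartile scaling (adjusted p = 0.0547), no filter (0.0531) and the replicate block (0.0641). In MMTV-CAFs the cultures split within both groups, at 89.1, 146 and 148 CPM in WT and 65.6, 118 and 68.2 in sgPrrx1 cultures. WT replicate 1 lay below sgPrrx1 replicate 2, so the groups overlapped, and the log2 fold change of −0.63 (standard error 0.27) had an edgeR adjusted p of 0.059. Without sgPrrx1 replicate 2 it was −0.95 (edgeR adjusted p = 0.00589), and without WT replicate 1 −0.83 (edgeR adjusted p = 0.0169). With all cultures kept and the replicate block it was −0.64 and passed (edgeR adjusted p = 0.0108). The coefficient of variation of Loxl4 was 26.2% in WT and 35.1% in sgPrrx1 MMTV-CAFs, where the median gene had 2.99 and 2.48%.

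**Figure D3:**
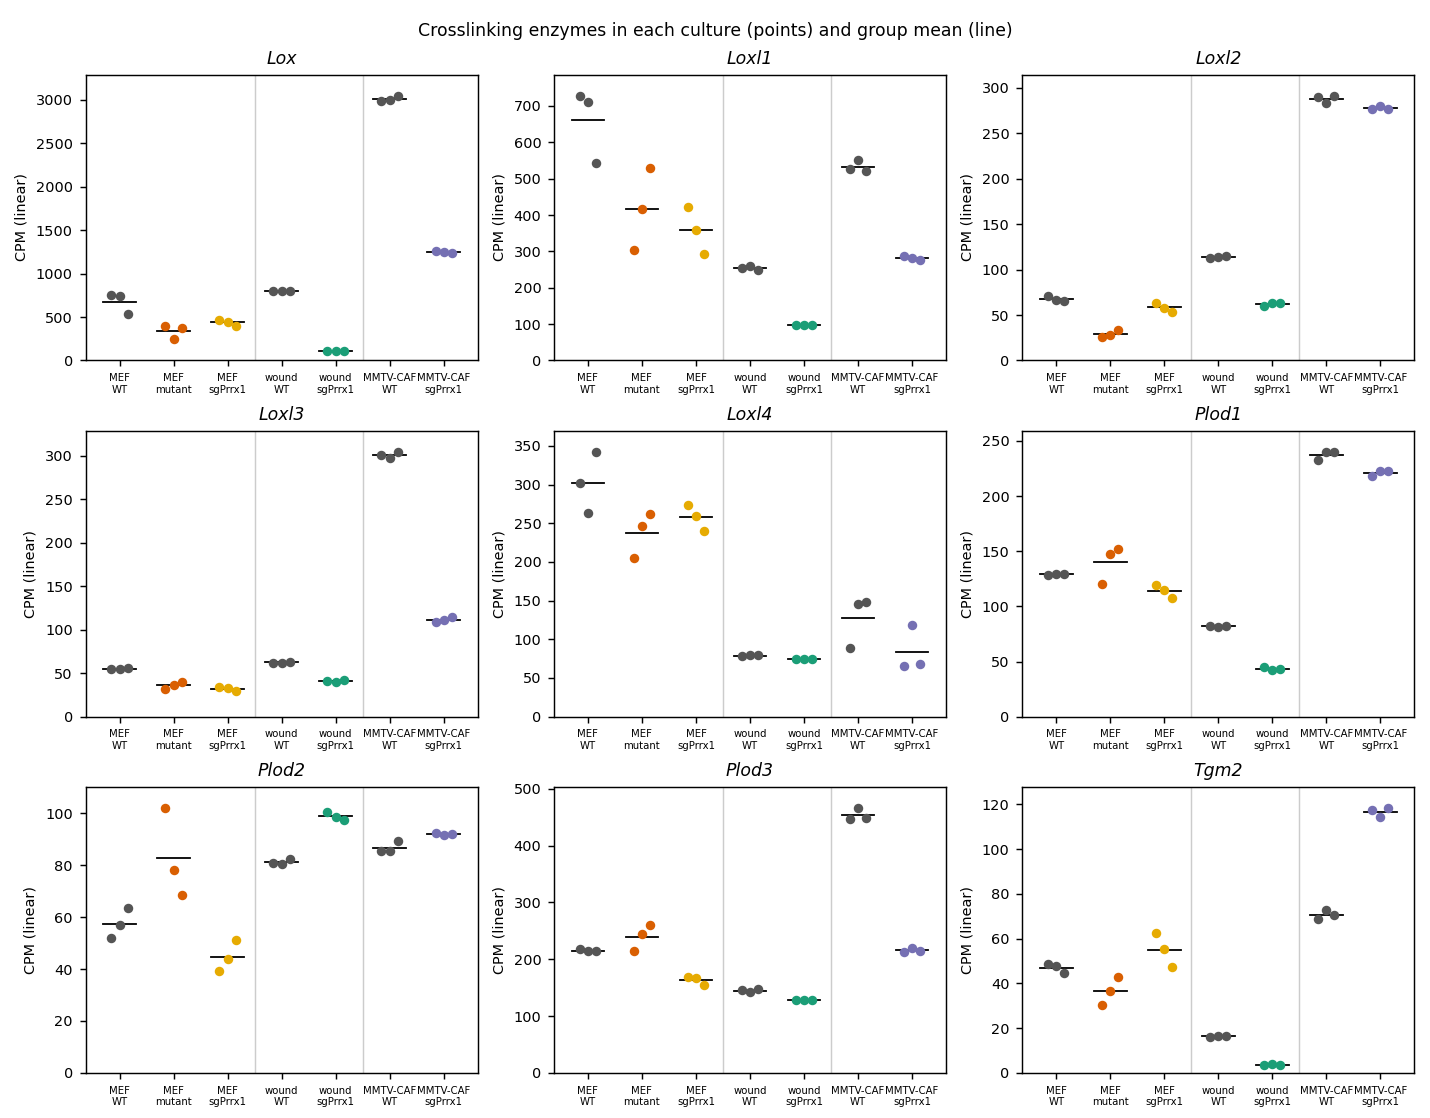
CPM of each member in every culture (points, on linear axes that start at 0) and the mean of 3 cultures (lines), by group. The sgPrrx1 wound-healing cultures sit below their WT cultures for every member except Plod2, and the Loxl4 panel shows WT and sgPrrx1 MMTV-CAF cultures spread from 65.6 to 148 CPM.

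The lysyl hydroxylases divided by type of fibroblast. Plod1 (chromosome 4, 147909753 to 147936776) hydroxylates lysines of the collagen helix, and Plod3 (chromosome 5, 136987019 to 136996646) also carries the glycosyltransferase activity that adds sugars to hydroxylysine. Upstream sequence was held for 3 members in the RefSeq promoter table of GRCm38.p6, Plod1, Plod3 and Loxl4. It is printed because Plod1 and Plod3 changed most in different types and Loxl4 varied most of the members within the MMTV-CAF groups. Each line gives the 250 bases before the annotated start, in the direction of the gene, with the homeodomain core TAAT in capitals, searched on both strands. Plod1 lies at chr4:147936777-147937026 on the minus strand, Plod3 at chr5:136986769-136987018 on the plus strand and Loxl4 at chr19:42612807-42613056 on the minus strand.
Plod1: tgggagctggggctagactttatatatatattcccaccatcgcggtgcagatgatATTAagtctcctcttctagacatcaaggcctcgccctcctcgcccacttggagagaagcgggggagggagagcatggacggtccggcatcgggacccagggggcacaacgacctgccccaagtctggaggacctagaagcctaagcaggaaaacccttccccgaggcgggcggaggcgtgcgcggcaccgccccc
Plod3: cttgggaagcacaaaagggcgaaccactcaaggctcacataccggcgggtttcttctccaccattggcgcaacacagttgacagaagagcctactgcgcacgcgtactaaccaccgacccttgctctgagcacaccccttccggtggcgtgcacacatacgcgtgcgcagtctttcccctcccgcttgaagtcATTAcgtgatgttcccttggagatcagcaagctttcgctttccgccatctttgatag
Loxl4: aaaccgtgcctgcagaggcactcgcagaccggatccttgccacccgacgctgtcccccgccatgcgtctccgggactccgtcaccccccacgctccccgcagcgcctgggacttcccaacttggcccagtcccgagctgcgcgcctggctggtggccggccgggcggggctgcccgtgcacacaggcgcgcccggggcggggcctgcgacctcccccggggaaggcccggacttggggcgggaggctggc
Plod1 and Plod3 held 1 match each and Loxl4 0, where 54.9% of 32851 promoter windows of this length held at least 1. The palindrome TAATTA had 0 matches in the 3 windows and was in 4.84% of all windows. The GC box GGGCGG, on either strand, matched at 2 positions in Plod1, 0 in Plod3 and 3 in Loxl4, and was in 32.7% of all windows. The short Smad element CAGAC, on either strand, had 1 match in Plod1, 0 in Plod3 and 1 in Loxl4 and was in 42.2% of all windows. The hypoxia response core ACGTG, on either strand, had 0 matches in Plod1, 1 in Plod3 and 0 in Loxl4 and was in 16.6% of all windows. G and C made up 61.6% of the Plod1, 55.6% of the Plod3 and 76% of the Loxl4 window. A match is a run of letters and not a measured binding site.

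Plod1 fell in wound-healing fibroblasts, from 82.5, 81.0 and 82.6 CPM in WT to 44.9, 42.1 and 43.6 in sgPrrx1 cultures, a log2 fold change of −0.92 (standard error 0.03, edgeR adjusted p = 1.35e-08). In MMTV-CAFs it moved little, from 232, 240 and 239 CPM to 218, 222 and 222, a log2 fold change of −0.12 (0.02, edgeR adjusted p = 0.00048). Plod3 showed the reverse order. It fell in MMTV-CAFs from 446, 466 and 449 CPM to 212, 220 and 214, a log2 fold change of −1.09 (standard error 0.02, edgeR adjusted p = 3.44e-09), and in wound-healing fibroblasts only from 145, 143 and 147 to 128, 127 and 128, or by 0.19 on the log2 scale. Groups did not overlap for either gene in either type. In MEF, Plod1 was at 128, 129 and 129 CPM in WT, 121, 148 and 152 in mutant and 119, 115 and 108 in sgPrrx1 cultures, and Plod3 at 218, 214 and 214, at 214, 244 and 260, and at 168, 167 and 155. The 2 genes did not pass in mutant MEF (log2 fold changes of 0.10 and 0.13, edgeR adjusted p = 0.404 and 0.22), and both passed as higher without mutant replicate 1 (0.19 and 0.20, edgeR adjusted p = 0.042 and 0.041). In sgPrrx1 MEF Plod3 was lower by 0.41 on the log2 scale (edgeR adjusted p = 0.00221) and Plod1 by 0.19 (edgeR adjusted p = 0.0477), the latter lost when any 1 of the 6 cultures was left out. Plod3 shares 941 bases with Znhit1, which had log2 fold changes of 0.20, 0.15, −0.04 and 0.08 in mutant MEF, sgPrrx1 MEF, wound-healing fibroblasts and MMTV-CAFs, none of them past the threshold.

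Plod2 (chromosome 9, 92539636 to 92608428), which hydroxylates the lysines of collagen telopeptides that give rise to the stable crosslinks of fibrotic tissue, was the one lysyl hydroxylase that rose. It was at 52.0, 57.1 and 63.4 CPM in WT MEF, 102, 78.3 and 68.4 in mutant MEF and 39.4, 43.9 and 51.3 in sgPrrx1 MEF. Mutant cultures were higher by 0.51 on the log2 scale (standard error 0.16, edgeR adjusted p = 0.0314) and sgPrrx1 cultures lower by −0.37 (0.12, edgeR adjusted p = 0.0401). The first call was lost without mutant replicate 2, WT replicate 1 or WT replicate 2, and the second without sgPrrx1 replicate 1 or 2, or WT replicate 2 or 3. In wound-healing fibroblasts Plod2 rose from 80.9, 80.7 and 82.6 CPM to 100.5, 98.6 and 97.7, a log2 fold change of 0.28 (standard error 0.02, edgeR adjusted p = 3.02e-06). In MMTV-CAFs it was at 85.5, 85.7 and 89.2 CPM in WT and 92.5, 91.6 and 91.9 in sgPrrx1 cultures, or 0.07 (0.02, edgeR adjusted p = 0.0291), a call lost without sgPrrx1 replicate 1 or 3, or WT replicate 1 or 2. Its group means spanned 2.21-fold, the least of the 9 members. Plod2 overlaps the noncoding B430319G15Rik at its start. As a share of the Plod sum per kilobase, Plod2 went from 30.6 to 40.5% in wound-healing fibroblasts and from 13.3 to 21.5% in MMTV-CAFs.

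Tgm2 (chromosome 2, 158116405 to 158146392) moved in opposite directions in the fibroblasts of wounds and tumours. In wound-healing fibroblasts it fell from 16.2, 16.6 and 16.5 CPM in WT to 3.31, 3.83 and 3.40 in sgPrrx1 cultures, 4.68-fold, with a log2 fold change of −2.23 (standard error 0.06, edgeR adjusted p = 6.78e-09). In MMTV-CAFs it rose from 68.6, 72.8 and 70.6 CPM to 117, 114 and 118, a log2 fold change of 0.70 (0.03, edgeR adjusted p = 1.16e-07). Groups did not overlap in either type. In MEF it was at 48.8, 47.6 and 44.5 CPM in WT, 30.4, 36.8 and 42.8 in mutant and 62.3, 55.4 and 47.3 in sgPrrx1 cultures. Mutant cultures were just below WT, with −0.38 (0.12, edgeR adjusted p = 0.0321), which was lost when any 1 culture other than mutant replicate 3 was left out, and sgPrrx1 and WT cultures overlapped, with 0.21 (0.11, edgeR adjusted p = 0.145, and 0.0379 without sgPrrx1 replicate 3). Its group means spanned 33.2-fold, the most of the 9 members. Of 7 other transglutaminases, 3, 1, 1 and 3 had enough counts to be tested in mutant MEF, sgPrrx1 MEF, wound-healing fibroblasts and MMTV-CAFs, and those that passed (2 higher, 0, 1 higher and 1 lower) were at means under 1 CPM in both groups.

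Whether the change with sgPrrx1 differed between types was tested as an interaction over the 18 WT and sgPrrx1 cultures. It did for 8 of 9 members, all except Loxl4 (edgeR adjusted p = 0.261), where 80.1% of all genes passed. Between wound-healing fibroblasts and MEF the change was lower for 5 members and higher for 2 (31.5 and 28.8% of all genes, 60.3% in all). Between MMTV-CAFs and MEF it was lower for 3 and higher for 2 (30.5 and 30.2%, 60.7% in all), and between MMTV-CAFs and wound-healing fibroblasts lower for 2 and higher for 5 (31.7 and 34.8%, 66.5% in all). At least a 2-fold difference held for 2 members lower, 0 in either direction and 2 higher in the same order, always Lox and Tgm2, beside 19.5% (7.06% lower, 12.4% higher), 22.9% (10.1 and 12.8%) and 29.1% (14.7 and 14.4%) of all genes. The last contrast was largest for Tgm2, with a log2 difference between the changes of 2.99 (standard error 0.12, edgeR adjusted p = 3.49e-12), and for Lox, with 1.61 (0.13, edgeR adjusted p = 1.83e-08). Plod1 and Plod3 differed by 0.85 (0.06, edgeR adjusted p = 1.44e-09) and −0.85 (0.05, edgeR adjusted p = 7.1e-10), which is the test of their reverse order. Loxl2 and Loxl3 parted in the same way, with 0.86 (0.07) and −0.80 (0.07). Plod2 differed from MEF in both other types, by 0.62 (0.10) in wound-healing fibroblasts and 0.46 (0.10) in MMTV-CAFs. Between those 2 types it differed by −0.16 (0.10, edgeR adjusted p = 0.182). With the replicate block that contrast was −0.159 and passed (edgeR adjusted p = 0.00863). The interaction model takes the spread of a gene over all 18 cultures, so the wider spread of MEF enters this standard error. Mutant and sgPrrx1 MEF, compared directly, differed for 5 members, 2 lower and 3 higher in the mutant, where 27.8% of all genes were lower and 28.4% higher (56.2% in all); 0 members did so by 2-fold (21.2% of all genes, 10.6% each way; 5 members had an unadjusted edgeR p under 0.05). Loxl2 and Tgm2 were lower in mutant than in sgPrrx1 MEF, by −0.99 (0.11) and −0.59 (0.15), and Plod2, Plod3 and Plod1 higher, by 0.88 (0.17), 0.54 (0.08) and 0.29 (0.10). Without mutant replicate 2 the count was 3, with Plod1 and Tgm2 lost, and the call of Plod1 held only when no culture, or mutant replicate 1, was left out. Loxl4 passed between MMTV-CAFs and the other types without sgPrrx1 MMTV-CAF replicate 2 (−0.70 against MEF and −0.85 against wound-healing fibroblasts) and, against the latter, without WT MMTV-CAF replicate 1 (−0.72). Against wound-healing fibroblasts it also passed with the replicate block (−0.50, edgeR adjusted p = 0.0483).

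The sums of the families followed from these changes. The lysyl oxidase sum per kilobase went from 439 ± 48.2 in WT MEF to 268 ± 42.6 in mutant and 280 ± 31.8 in sgPrrx1 MEF (SD, n = 3 each). It went from 302 ± 2.08 to 92.4 ± 0.138 in wound-healing fibroblasts, 30.6% of WT, and from 956 ± 13.6 to 449 ± 7.78 in MMTV-CAFs, 47.0% of WT (SD, n = 3 each). Since Lox fell most, the share of Loxl4 rose from 6.21 to 19.1% in wound-healing fibroblasts while its own level hardly moved. The Plod sum was 80.5 ± 1.15 in WT, 93.6 ± 3.47 in mutant and 63.7 ± 1.06 in sgPrrx1 MEF, 63.7 ± 0.839 and 58.4 ± 0.536 in WT and sgPrrx1 wound-healing fibroblasts, and 156 ± 2.74 and 102 ± 1.10 in WT and sgPrrx1 MMTV-CAFs (SD, n = 3 each).

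The proteins on which these enzymes act, and those that assist them, were followed as lists. Of 13 substrates and scaffolds of crosslinking, 8 were lower and 2 higher among 12 tested in mutant MEF, 12 lower and 0 higher among 12 in sgPrrx1 MEF, 11 lower and 1 higher among 12 in wound-healing fibroblasts and 13 lower and 0 higher among 13 in MMTV-CAFs. Over all genes the shares called lower and higher were 30.5 and 29.4%, 22.8 and 20.3%, 39.3 and 38.3%, and 41.9 and 41.2% in the same order, and these shares also stand beside the lists that follow. The median log2 fold changes of the substrates were −0.98, −0.84, −1.85 and −1.60, with 0.01, 0.00, 0.00 and −0.00 over all genes. Postn, the matricellular protein that brings Bmp1 to the matrix and so promotes Lox activation, changed by −5.14 (standard error 0.11) in mutant MEF and −7.40 (0.03) in MMTV-CAFs. Eln, which encodes elastin, had 427 counts over WT MEF, 3 over mutant MEF and 0 over sgPrrx1 MEF, at least 134-fold lower in the latter when 3 counts are allowed over the group. Fmod, a proteoglycan that binds collagen and Lox, had 0 counts in sgPrrx1 MEF and in sgPrrx1 wound-healing fibroblasts, with bounds of 28.02-fold and 153-fold on the fall by the same floor. WT counts were low there, 89 over WT MEF and 461 over WT wound-healing fibroblasts. Mutant MEF held 90 counts of Fmod, a log2 fold change of −0.05. In MMTV-CAFs Fmod had 24273 counts over WT and 4467 over sgPrrx1 cultures (−2.49). Fn1, the fibronectin that Tgm2 crosslinks, was higher in mutant MEF (0.51, standard error 0.12) and wound-healing fibroblasts (0.53, 0.02) and lower in sgPrrx1 MEF (−0.47, 0.10) and MMTV-CAFs (−0.94, 0.01).

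Of 11 genes for procollagen processing and copper supply, 8 were lower and 0 higher among 9 tested in mutant MEF, 4 lower and 2 higher among 9 in sgPrrx1 MEF, 5 lower and 5 higher among 10 in wound-healing fibroblasts and 7 lower and 3 higher among 10 in MMTV-CAFs, with medians of −0.72, −0.42, −0.03 and −0.81. In wound-healing fibroblasts both directions were thus near the share over all genes. Tll1, a relative of the proteinase Bmp1 that removes the propeptide of Lox, was lower in both MEF comparisons (−2.22, standard error 0.15, and −2.42, 0.14) and fell from 3633 counts over WT MMTV-CAFs to 5 over sgPrrx1 cultures, while it rose in wound-healing fibroblasts (0.48, 0.04). Adamts3, a proteinase that removes the N-propeptide of procollagen, rose in wound-healing fibroblasts (2.20, 0.04) and in MMTV-CAFs (1.66, 0.05). Of 15 genes for collagen hydroxylation and folding, 4 were lower and 5 higher among 14 tested in mutant MEF, 9 lower and 0 higher in sgPrrx1 MEF, 12 lower and 1 higher in wound-healing fibroblasts and 9 lower and 2 higher in MMTV-CAFs, with medians of 0.04, −0.33, −0.47 and −0.41. In mutant MEF both directions were near the share over all genes. P3h2, a prolyl 3-hydroxylase, rose in mutant MEF (1.44, 0.08). It fell in sgPrrx1 MEF (−1.35, 0.08), wound-healing fibroblasts (−1.06, 0.05) and MMTV-CAFs (−1.31, 0.16), in the last with means under 1 CPM in both groups. P4ha3, a catalytic subunit of prolyl 4-hydroxylase, fell in mutant MEF (−1.47, 0.15), sgPrrx1 MEF (−2.04, 0.17) and MMTV-CAFs (−0.87, 0.03) and rose in wound-healing fibroblasts (0.60, 0.03). These values are log2 fold changes with standard errors, all past an edgeR adjusted p of 0.05.

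**Figure D4:**
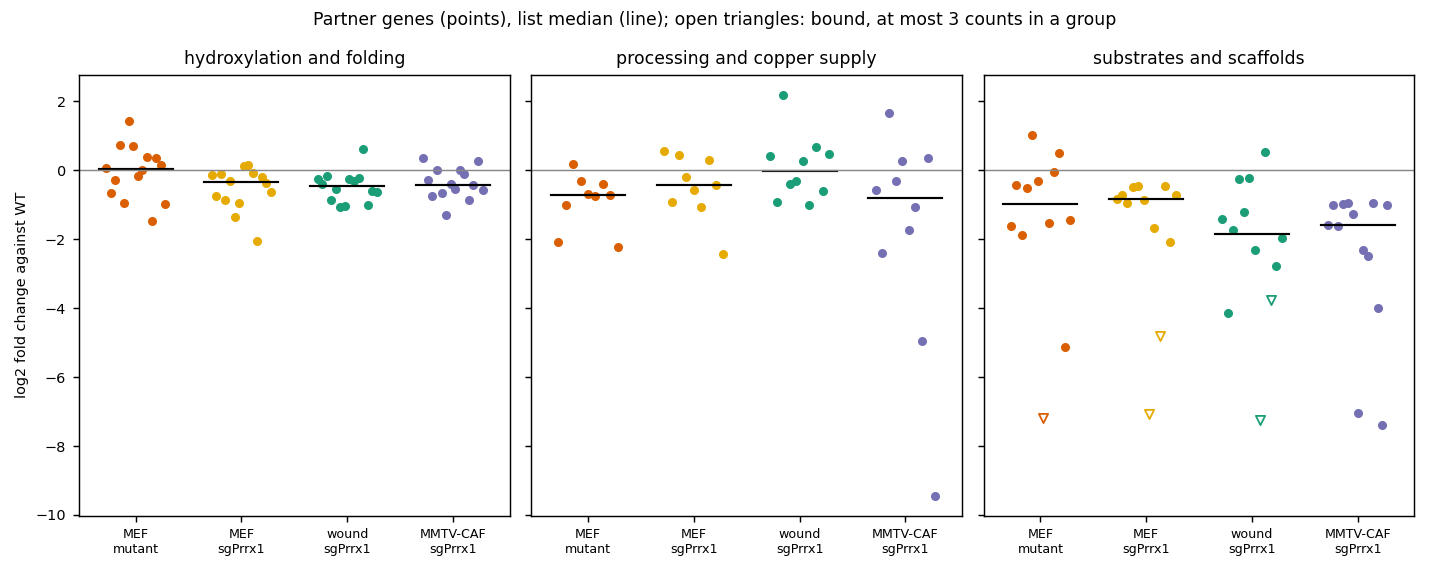
Log2 fold change against WT of each tested gene in the lists of hydroxylation and folding, processing and copper supply, and substrates and scaffolds, for the 4 comparisons; points are genes, lines are list medians, and open triangles mark genes with at most 3 counts over a group, placed at their bound. The substrates lie lowest, with medians from −1.85 to −0.84, while the medians of the hydroxylation list lie between −0.47 and 0.04.

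Over all 21 cultures, the genes whose log2 CPM followed each member most closely were ranked by Pearson's r among 12174 genes with a mean of at least 1 CPM. Points are 7 tight groups rather than 21 independent samples, so these are descriptions. Lox followed Rab3il1 and Abca1 (r = 0.966 and 0.965), Loxl2 followed Isg15, Car13 and Npc2 (0.992, 0.982 and 0.982) and Loxl3 followed Rnf114, Col5a1 and Gm12250 (0.979, 0.977 and 0.975). Loxl1 followed Prkcsh, Calm3 and Abhd12 (0.967, 0.966 and 0.963) and Loxl4 followed Eif4ebp2, Rad9a and Anapc1 (0.959, 0.958 and 0.956). For the hydroxylases these were Tbx18, Dtx4 and Col6a3 for Plod1 (0.985, 0.975 and 0.975), Cd109, Skil and Znf41-ps for Plod2 (0.965, 0.937 and 0.929) and Cant1, Ephb4 and Tgfb3 for Plod3 (0.983, 0.970 and 0.969). Tgm2 followed Hddc3, Skida1 and Plcb1 (0.973, 0.967 and 0.964). Between members, Plod1 and Tgm2 were most alike (r = 0.945), then Loxl2 and Loxl3 (0.888), and Loxl4 and Plod2 most opposed (−0.736). With Prrx1 itself r was highest for Loxl2 (0.904), Loxl3 (0.827) and Lox (0.807), and near 0 for Plod2 (0.0277).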

How the data were processed

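Total RNA of 21 fibroblast cultures was sequenced from an unstranded TruSeq library. The authors trimmed reads with Trimmomatic, aligned them to mm10 with STAR and counted them with HTSeq; the deposited values are counts, whole numbers for each gene with no scaling to library size. The strand setting and annotation are not given in the sources used here, nor whether the ComBat-seq correction that the methods name was applied to these counts. All columns were mapped to a sample (0 left over), those of wound-healing fibroblasts by elimination of the other types.

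The filterByExpr rule of edgeR 4.0.16 (R 4.3.3) chose the genes, which were scaled by TMM and tested by the quasi-likelihood F test, at a Benjamini-Hochberg adjusted p under 0.05 over all genes. Each comparison used its own 6 cultures, and types were compared by interaction over 18, with WT types compared over 9. The standard error is the log2 fold change divided by the square root of F. With 3 cultures a group, an exact permutation test cannot go below p = 0.1. Levels are CPM with TMM over 21 libraries, total counts ranged from 69588655 to 134790440, and log2 CPM used a prior count of 2. Exon lengths came from Gencode M1, and positions and promoters from the RefSeq table of GRCm38.p6. Steps were tested on simulated data.

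The members, lists and tests were chosen with earlier results of these data known. Named genes are the members, Prrx1, at most the 2 largest falls and 2 largest rises past the threshold per list and comparison, and the 3 genes most like each member, of which 1 is not reported here; cell type markers, Kdm5d, Ddx3y, Xist, overlapping neighbours, the genes that followed Loxl4 in MMTV-CAFs and the extra values of Fn1, Tll1 and P3h2 lie outside this rule. Alternatives were DESeq2 1.42.0, RLE and upper-quartile scaling, other filters, counts divided by 2, a 2-fold minimum, the replicate number as a block, all 9 MEF in one model and each culture left out. Python 3.11.15, pandas 2.3.3 and matplotlib 3.10.9 were used for tables and plots.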

Additional observations from a re-analysis of the deposited data

Results flagged for a closer look

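The change with sgPrrx1 differed between MEF, wound-healing fibroblasts and MMTV-CAFs for 8 members, by the interaction test of edgeR on 3 cultures a group. The adjusted p was 8.25e-10 for Lox, 0.0108 for Loxl1, 6.35e-08 for Loxl2 and 7.36e-08 for Loxl3. It was 1.52e-09 for Plod1, 0.000124 for Plod2, 1.31e-09 for Plod3 and 5.82e-12 for Tgm2. Tgm2 fell in wound-healing fibroblasts and rose in MMTV-CAFs, and Plod2 fell in sgPrrx1 MEF and rose in sgPrrx1 cultures of both other types. The Plod2 calls in sgPrrx1 MEF and MMTV-CAFs were each lost when some single cultures were left out. Between the 2 kinds of Prrx1 loss in MEF, the log2 difference of mutant minus sgPrrx1 passed the edgeR threshold for Loxl2 (−0.99), Plod1 (0.29), Plod2 (0.88), Plod3 (0.54) and Tgm2 (−0.59). No rule for outlying cultures was applied to groups of 3, although each culture was left out in turn.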

How the results depend on the processing

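Of 99 member values compared over the alternatives, 76 kept their direction and their side of the threshold in all of them. A minimum of 2-fold gave 2, 0, 3 and 3 members in mutant MEF, sgPrrx1 MEF, wound-healing fibroblasts and MMTV-CAFs, and 3283, 1411, 2179 and 3377 genes in all. It gave 0 members between mutant and sgPrrx1 MEF, 2, 0 and 2 for the interaction of wound-healing fibroblasts with MEF, MMTV-CAFs with MEF and MMTV-CAFs with wound-healing fibroblasts, and 3 and 5 between WT wound-healing fibroblasts or WT MMTV-CAFs and WT MEF; at an unadjusted edgeR p under 0.05, 7, 5 and 6 members passed where these counts are 0. Leaving out each culture gave 3 to 7 members in mutant MEF, 4 to 6 in sgPrrx1 MEF, 9 to 9 in wound-healing fibroblasts, 7 to 9 in MMTV-CAFs and 3 to 5 between mutant and sgPrrx1 MEF, and 3830 to 6340 genes in sgPrrx1 MEF.

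Same-numbered cultures did not deviate together (correlations of their deviations across genes from −0.355 to 0.203), so the numbers are not treated as a pairing. With the replicate block, 3 members were called in mutant MEF and 3 between mutant and sgPrrx1 MEF.

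Under upper-quartile scaling the difference of Plod2 between WT MMTV-CAFs and WT wound-healing fibroblasts was −0.0463 in place of 0.02, not past the threshold in either. The difference of Loxl1 between the sgPrrx1 changes of MMTV-CAFs and MEF, also not called, ranged from −0.15 to 0.12 when a culture was left out. With library totals alone, levels were 0.931 to 1.077 times those with TMM, and 37 of 63 moved by less than 1 SD. The causes were not tested. No alternative was left out. Depth did not limit the members, whereas Eln, Fmod and other partners at 0 counts have bounds only.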

Other observations

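Among the 6 MMTV-CAF cultures, the genes that followed the split of Loxl4 most closely were Rnps1 (Pearson's r = 0.994), Alyref2 (0.969) and Neu3 (0.967), out of 12100 genes, a description over 6 cultures chosen after the values of Loxl4 had been seen. Rnps1 itself ranged only from 60.6 to 63.0 CPM, while Loxl4 ranged from 65.6 to 148. At Loxl4, 95.8% of genes had a lower coefficient of variation in WT and 95.4% in sgPrrx1 MMTV-CAFs.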
